A study of Mus musculus with 4 samples.

Results

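Chemokine ligand genes encode small secreted or membrane-bound proteins that direct the migration of leukocytes. The 37 rows, of 21878 in each deposited table, whose symbols follow the pattern Cxcl, Ccl, Cx3cl1 or Xcl1 were examined in liver progenitor-like cells grown from hepatocytes (HepLPC, n = 2 libraries) and from non-parenchymal cells (NPC_LPC, n = 2 libraries). Progenitor-like cells are proliferating cells that adult liver cells turn into in culture, here with a transition medium and an expansion medium. All cells came, per the labels, from C57BL/6 mice of 6 to 8 weeks. The protocol lists tdTomato lineage-tracing mice given AAV8-TBG-Cre, a virus that marks hepatocytes, for the hepatocyte preparations. It lists AlbCreERT/R26GFP mice, in which the albumin promoter drives the Cre, for the non-parenchymal ones. Taken as listed, line and virus went with the cell origin and cannot be told apart from it. Each library had 17575998 to 20625957 counts. Groups follow the titles, since the cell type label of HepLPC mentions hepatocytes as well as NPCs.

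The family is divided by the spacing of conserved cysteines into CXC, CC, CX3C and C ligands, and each ligand acts on G protein-coupled receptors of the leukocyte it attracts. CXC ligands with the tripeptide ELR before the cysteines attract neutrophils through CXCR2. The CC ligands Ccl2 and Ccl7 attract monocytes through CCR2. In injured liver, hepatocytes, bile duct cells, stellate cells and Kupffer cells are all known sources of chemokines, and NF-kB and interferon signalling are the best known inducers of their genes.

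Of the 37 genes, 23 encode CC ligands and 12 encode CXC ligands. Only 16 genes had enough counts for the test (9 CXC, 6 CC and Cx3cl1). The other 21 comprised 8 with no count in any library, 6 more with at most 3 counts in every library, and 7 with more. The largest count among these 21 was 45.

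The same 4 genes held most of the chemokine RNA in every library, though Ccl20 was a small part of it in NPC_LPC. Cxcl1, Ccl2, Cxcl5 and Ccl20 together held 94.8% and 96.2% of the summed chemokine FPKM in HepLPC replicates 1 and 2, and 97.7% and 96.3% in those of NPC_LPC. Ccl20 alone held 7.24% and 17.8% in HepLPC, and 4.07% and 1.97% in NPC_LPC. It was at 203 and 440 FPKM in HepLPC (ranks 256 and 108), against 133 and 44.0 FPKM in NPC_LPC (ranks 347 and 1244). All 37 genes summed to 2807 and 2472 FPKM in HepLPC replicates 1 and 2, and to 3280 and 2238 FPKM in those of NPC_LPC. These sums overlap between the groups. They made up 0.684% to 0.859% of all deposited FPKM in HepLPC and 0.717% to 1.11% in NPC_LPC.

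**Figure D1:**
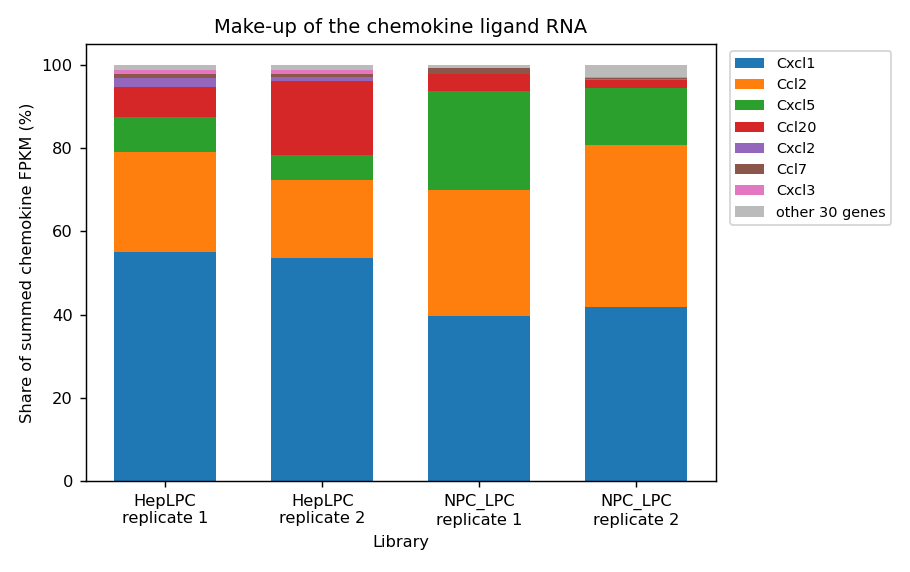
Stacked bars give the share (%) of the summed chemokine FPKM in each library. Segments are Cxcl1, Ccl2, Cxcl5, Ccl20, Cxcl2, Ccl7, Cxcl3 and the other 30 genes together. Cxcl1 takes 55.2% and 53.5% in HepLPC and 39.7% and 41.8% in NPC_LPC, and the Ccl20 segment is widest in HepLPC replicate 2.

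Cxcl1, a neutrophil attractant, was the most abundant of them in all 4 libraries. It was at 1548 and 1323 FPKM in HepLPC replicates 1 and 2, ranks 10 and 24 among all genes. In NPC_LPC it was at 1302 and 935 FPKM, ranks 13 and 24. Ccl2, the main monocyte attractant, was at 673 and 466 FPKM in HepLPC, against 994 and 872 FPKM in NPC_LPC. Ccl2 ranked 52 and 98 in HepLPC and 15 and 32 in NPC_LPC. The groups of neither gene overlapped, with Cxcl1 higher and Ccl2 lower in both HepLPC libraries. The differences were small: the edgeR log2 fold change, HepLPC over NPC_LPC, was 0.40 (SE 0.30, adjusted p = 0.469) for Cxcl1 and -0.68 (SE 0.28, adjusted p = 0.235) for Ccl2, and neither passed the test.

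**Figure D2:**
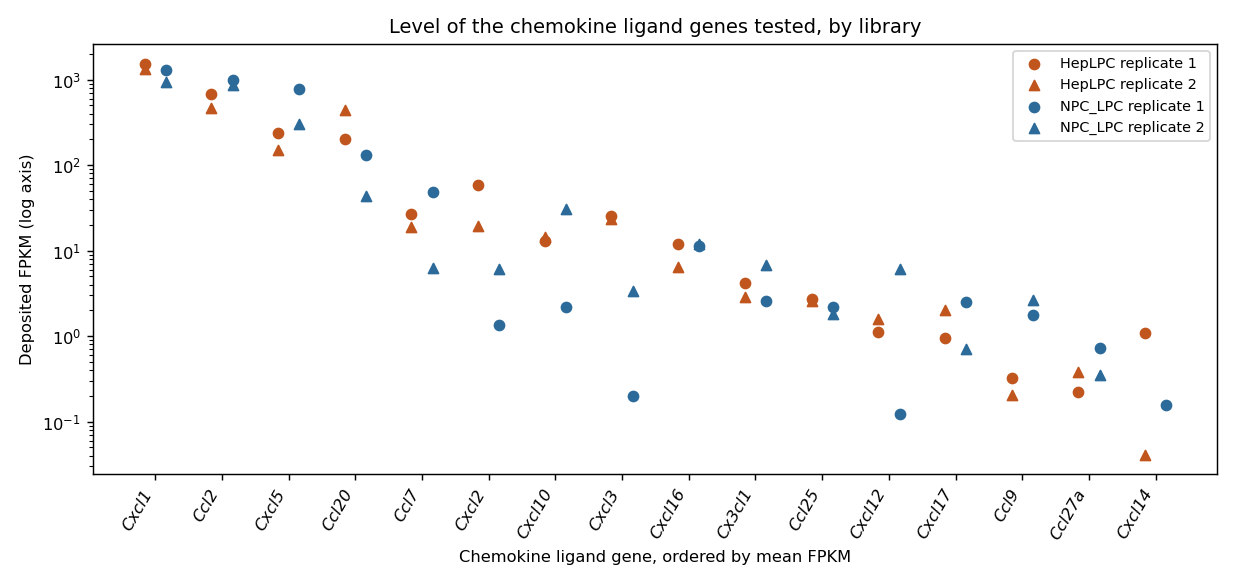
Points give the deposited FPKM (log axis) of the 16 tested chemokine ligand genes in each library, HepLPC left and NPC_LPC right of each tick, with circles for replicate 1 and triangles for replicate 2. Cxcl2 and Cxcl3 lie higher in both HepLPC libraries, and the NPC_LPC points of Cxcl3, Cxcl10 and Cxcl12 lie far apart (Cxcl14 of NPC_LPC replicate 2 is at 0 FPKM and not drawn).

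None of the 16 tested genes was called between the origins by edgeR over all genes, where 0.43% of the 12332 tested genes were called. The smallest adjusted p was 0.083, for Cxcl2. At an unadjusted edgeR p under 0.05 there were 5 of the 16 genes (Cxcl2, Cxcl3, Ccl20, Cxcl5 and Ccl9), against 21.9% of all genes. DESeq2 called the same 5 genes, 3 higher and 2 lower in HepLPC, where it called 12.3% of all genes (5.81% higher and 6.5% lower). The CPM (counts scaled by library total and TMM factor) of the 2 groups did not overlap for 10 of the 16, 5 higher and 5 lower in HepLPC, against 56.4% of all tested genes (27.9% higher and 28.6% lower). The fitted log2 fold change was at least 1 in size for 8 of the 16, against 22.4% of all genes. Its median was -0.17 over the 16 genes and 0.00 over all tested genes. Its median size was 0.92 over the 16 genes, against 0.48 over all tested genes.

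**Figure D3:**
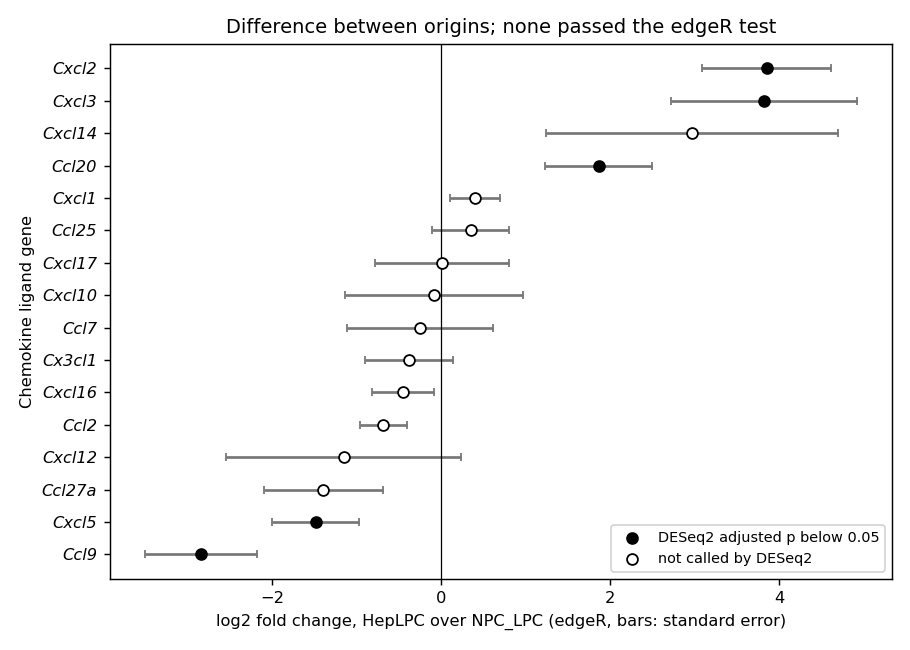
Points give the edgeR log2 fold change, HepLPC over NPC_LPC, of the 16 tested genes, and bars its standard error. Filled points mark the 5 genes called by DESeq2, Cxcl2, Cxcl3 and Ccl20 on the higher and Cxcl5 and Ccl9 on the lower side.

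The ELR-type CXC genes lie in a stretch of chromosome 5 (90759360 to 90905938, GRCm38) in the order Cxcl5, Cxcl3, Cxcl15, Cxcl1 and Cxcl2. The promoters of Cxcl1, Cxcl2 and Cxcl3 are shown because these 3 genes of the cluster share a sequence, while Cxcl1 differed less between the origins. The log2 fold change was 0.40 for Cxcl1, against 3.85 for Cxcl2 and 3.82 for Cxcl3. Each line gives the 120 bases before the RefSeq start on the plus strand, with GGGAATTTCCC in capitals, the longest run of bases that the 3 windows share.
Cxcl1, chr5:90891125-90891244: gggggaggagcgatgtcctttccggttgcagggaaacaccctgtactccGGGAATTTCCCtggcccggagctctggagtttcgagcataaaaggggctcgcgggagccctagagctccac
Cxcl2, chr5:90903779-90903898: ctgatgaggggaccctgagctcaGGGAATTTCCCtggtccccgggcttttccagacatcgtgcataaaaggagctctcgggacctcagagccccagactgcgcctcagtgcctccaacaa
Cxcl3, chr5:90785981-90786100: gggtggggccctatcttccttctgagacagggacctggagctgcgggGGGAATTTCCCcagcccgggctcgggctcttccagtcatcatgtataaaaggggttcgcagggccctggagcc

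The match begins 71, 97 and 73 bases before the RefSeq start of Cxcl1, Cxcl2 and Cxcl3. These distances depend on the start used: the GENCODE starts of Cxcl1 (90891241) and Cxcl2 (90903871) lie inside the printed windows. These letters, taken from the 3 sequences themselves, are found in 14 of 32851 promoter windows (0.0426%). The NF-kB consensus, which overlaps the shared run on both strands, matched 6 of the 27 chemokine genes with a window (Cxcl1, Cxcl2, Cxcl3, Cxcl10, Ccl9 and Ccl20) and 4.46% of all 27025 genes with one. Cxcl5, Cxcl16, Cxcl17, Ccl2, Ccl4, Ccl5, Ccl7, Ccl11, Ccl24 and Ccl26 had no window, so their promoters were not searched for any motif. A match describes the letters and is not evidence of binding.

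Cxcl2, which attracts neutrophils, was at 117 and 42.1 CPM in HepLPC, against 2.58 and 8.42 CPM in NPC_LPC, replicate 1 before replicate 2 as in every pair of values below. Both HepLPC libraries were above both NPC_LPC libraries, and the means were 79.7 ± 53.1 CPM in HepLPC and 5.50 ± 4.13 CPM in NPC_LPC (SD, n = 2 each), 14.5-fold apart. The edgeR log2 fold change was 3.85 (SE 0.76, adjusted p = 0.083), which missed the threshold. Leaving out 1 library moved it between 2.95 (without HepLPC replicate 1) and 4.95 (without NPC_LPC replicate 2). DESeq2 called it higher in HepLPC (adjusted p = 3.49e-07), and over all alternatives its adjusted p ran up to 0.232.

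Cxcl3, a close paralogue with the same receptor, was at 22.9 and 20.6 CPM in HepLPC, against 0.165 and 2.87 CPM in NPC_LPC. The means were 21.7 ± 1.64 CPM in HepLPC and 1.52 ± 1.91 CPM in NPC_LPC (SD, n = 2 each). The HepLPC libraries were close together, while NPC_LPC replicate 1 had 3 counts and replicate 2 had 58. The log2 fold change was 3.82 (SE 1.10, edgeR adjusted p = 0.141; DESeq2 adjusted p = 0.00126). The edgeR test called Cxcl3 higher in HepLPC without NPC_LPC replicate 1 (log2 fold change 2.93, adjusted p = 0.0437) and without NPC_LPC replicate 2 (6.98, adjusted p = 0.0236). It did not call Cxcl3 without HepLPC replicate 1 (adjusted p = 0.308) or without HepLPC replicate 2 (adjusted p = 0.28). Over all alternatives its adjusted p ran from 0.00126 to 0.308. Cxcl2 and Cxcl3 transcripts share 126 windows of 50 identical bases, 5.84% of those of Cxcl2, so some reads could be assigned to either.

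Cxcl5, after Cxcl1 the neutrophil attractant with the highest FPKM, lay the other way. It was at 247 and 180 CPM in HepLPC, against 875 and 318 CPM in NPC_LPC. The means were 213 ± 47.5 CPM in HepLPC and 596 ± 394 CPM in NPC_LPC (SD, n = 2 each). Both HepLPC libraries were below both NPC_LPC libraries, which themselves differed 2.75-fold. The log2 fold change was -1.48 (SE 0.51, edgeR adjusted p = 0.183), and DESeq2 called it lower in HepLPC (adjusted p = 0.0284; range over all alternatives up to 0.554). Without NPC_LPC replicate 1 the log2 fold change was -0.56. Cxcl15, known from lung epithelium, had 2 and 9 counts in HepLPC and 11 and 2 counts in NPC_LPC.

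Ratios between these genes within a library do not depend on scaling. Cxcl2 counts were 47.5% and 23.4% of Cxcl5 counts in HepLPC replicates 1 and 2, against 0.295% and 2.65% in NPC_LPC. Cxcl5 counts were 23.8% and 18.5% of Cxcl1 counts in HepLPC, against 96.2% and 51.8% in NPC_LPC. Cxcl3 counts were 2.20% and 2.11% of Cxcl1 counts in HepLPC, against 0.0181% and 0.468% in NPC_LPC. Cxcl3 counts were 19.5% and 48.8% of Cxcl2 counts in HepLPC, against 6.38% and 34.1% in NPC_LPC. This last ratio overlapped between the groups and the other 3 did not, and none was tested. The ratios rest on the same counts as the values of the single genes above. The share of other gene pairs without overlap was not computed.

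**Figure D4:**
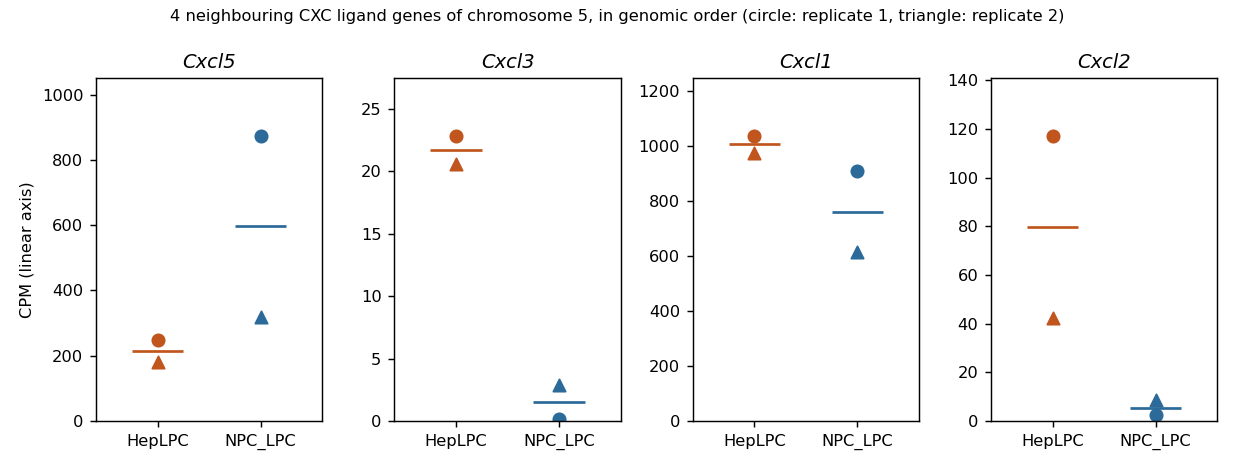
Each panel gives the CPM (linear axis from 0) of 1 CXC gene in the HepLPC and NPC_LPC libraries, with circles for replicate 1, triangles for replicate 2 and lines for the mean of 2 libraries. Panels run in genomic order; Cxcl5 is lower in HepLPC, Cxcl3 and Cxcl2 are higher, and Cxcl1 has the smallest fold change of the 4.

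AU-rich elements in the 3′ UTR mark messenger RNAs for decay by proteins such as ZFP36. The heptamer TATTTAT was found 6 times in the longest annotated 3′ UTR of Cxcl1, 7 times in that of Cxcl2, 2 times in that of Cxcl3, and 1 time each in those of Cxcl5 and Ccl20. Ccl2 and Ccl7 had 0 matches. Of 33 chemokine genes with a 3′ UTR of at least 50 bases, 12 held the heptamer, against 28.1% of 20659 genes. The number of matches also depends on the length of the UTR, which is 592 bases for Cxcl1 and 1494 for Cxcl2.

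Ccl20, the ligand of CCR6, attracts dendritic cells and lymphocytes to epithelia. It was at 122 and 285 CPM in HepLPC, against 83.9 and 28.1 CPM in NPC_LPC. The means were 204 ± 115 CPM in HepLPC and 56.0 ± 39.5 CPM in NPC_LPC (SD, n = 2 each). Both HepLPC libraries were higher, though HepLPC replicate 1 was closer to NPC_LPC replicate 1 than to HepLPC replicate 2. The log2 fold change was 1.86 (SE 0.64, edgeR adjusted p = 0.181), and DESeq2 called it higher in HepLPC (adjusted p = 0.0185; range over all alternatives up to 0.43). Its fold change on the log2 scale was 1.12 without HepLPC replicate 2 and 1.28 without NPC_LPC replicate 2, against 2.88 without NPC_LPC replicate 1. Relative to Ccl2 in the same library, Ccl20 counts were 24.5% and 76.6% in HepLPC and 10.98% and 4.45% in NPC_LPC. The 120 bases before its start are shown because they hold a further match to the NF-kB consensus, in capitals, which reads on the other strand.
Ccl20, chr1:83116646-83116765: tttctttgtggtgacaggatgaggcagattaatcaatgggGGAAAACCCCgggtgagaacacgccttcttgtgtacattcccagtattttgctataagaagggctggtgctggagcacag

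The monocyte attractants Ccl2 and Ccl7 are neighbours on chromosome 11 (Ccl2 at 82035571 to 82037453, Ccl7 at 82045712 to 82047525). In CPM, Ccl2 was at 497 and 372 in HepLPC and at 764 and 630 in NPC_LPC. Ccl7 was at 24.0 and 17.1 CPM in HepLPC, against 43.2 and 5.69 CPM in NPC_LPC, where the 2 libraries enclosed those of HepLPC. Its log2 fold change was -0.25 (SE 0.86, edgeR adjusted p = 0.895) with all libraries and 1.87 without NPC_LPC replicate 1. Ccl7 counts were 4.84% and 4.60% of Ccl2 counts in HepLPC, and 5.65% and 0.903% in NPC_LPC. The other genes of this cluster were nearly absent: Ccl12 had no count, and Ccl8, Ccl11 and Ccl1 had at most 2 counts in any library.

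Ccl9, which acts on CCR1 and is known from macrophages and osteoclasts, was the member of the macrophage inflammatory group that could be tested. It was low, at 0.944 and 0.507 CPM in HepLPC and 4.28 and 6.19 CPM in NPC_LPC (17 and 9 counts against 78 and 125). Both HepLPC libraries were lower, by a log2 fold change of -2.84 (SE 0.66, edgeR adjusted p = 0.101). DESeq2 called Ccl9 lower in HepLPC (adjusted p = 0.00949; range over all alternatives up to 0.257). Ccl5, a T cell attractant and an interferon-responsive gene, had no count in either HepLPC library and 3 and 45 counts in NPC_LPC replicates 1 and 2. Ccl3 had 3 counts and Ccl4 had 5 counts in 1 NPC_LPC library each, and both had none in the other libraries. Ccl6 had 2 and 4 counts in HepLPC and 2 and 11 in NPC_LPC.

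The listed macrophage genes were split in these cultures. Clec4f and Cd163 had no count, Adgre1 had at most 1 count in any library, and of 8 macrophage genes 4 stayed at or under 3 counts. Cd14, Cd68 and Csf1r passed the filter, with Csf1r at 3.05 and 1.86 CPM in HepLPC, against 1.76 and 0.792 CPM in NPC_LPC. The 8 genes summed to 114 and 52.4 CPM in HepLPC and to 235 and 72.7 CPM in NPC_LPC, nearly all of it Cd14 and Cd68. The 4 leukocyte genes, Ptprc among them, summed to at most 0.167 CPM in HepLPC and 0.658 CPM in NPC_LPC. The 8 lymphocyte and neutrophil genes summed to 2.22 and 1.69 CPM in HepLPC and to 0.219 and 0.149 CPM in NPC_LPC. The 6 endothelial genes summed to 5.97 to 7.44 CPM in HepLPC and 2.30 to 3.61 CPM in NPC_LPC, and the 10 stellate and fibroblast genes to 9.58 to 14.7 CPM and 5.76 to 16.7 CPM. The 7 bile duct genes summed to 4774 and 2214 CPM in HepLPC and to 9504 and 4783 CPM in NPC_LPC. Most of it was Spp1 and Krt19, with Epcam at or below 1.75 CPM. Spp1 was lower in HepLPC (3024 and 904 CPM, against 8939 and 4201 CPM in NPC_LPC). Krt19 was higher in HepLPC (1434 and 885 CPM, against 111 and 275 CPM), as was Krt7 (103 and 165 CPM, against 1.43 and 17.2 CPM). Of the 6 bile duct genes tested, 3 had a fitted value above 0 and 3 below. The 4 mesothelial genes summed to 1633 and 1673 CPM in HepLPC and to 690 and 506 CPM in NPC_LPC, most of it Msln and Krt19, which is in both lists. Msln itself overlapped between the groups (198 and 785 CPM in HepLPC, against 573 and 231 CPM in NPC_LPC). Upk3b was higher in HepLPC (0.833 and 2.70 CPM, against 0.329 and 0 CPM). Wt1 had a lower mean there and overlapped (0.167 and 0.732 CPM, against 5.10 and 0.693 CPM). The 8 hepatocyte genes, most of it Hnf4a, summed to 308 and 294 CPM in HepLPC and to 34.8 and 59.6 CPM in NPC_LPC, while Alb reached at most 2.28 CPM. In bulk RNA, fewer cells of a type and less RNA per cell cannot be told apart, and the part of these marker differences in the chemokine values was not tested.

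The CXCR3 ligands Cxcl9 and Cxcl10 attract activated T cells and are induced by interferon. Cxcl10 was at 13.7 and 17.0 CPM in HepLPC, against 2.14 and 30.3 CPM in NPC_LPC. The HepLPC libraries lay between the NPC_LPC libraries, which differed 14.2-fold. The log2 fold change was -0.08 (SE 1.05, edgeR adjusted p = 0.973) and 2.84 without NPC_LPC replicate 2. Cxcl9 had 3 and 1 counts in HepLPC and 2 and 22 counts in NPC_LPC. The 250 bases before the start of Cxcl10, on the minus strand, are shown because they hold both kinds of element, in capitals: an interferon response core (TTTC, any 2 bases and TTTC, here on the other strand) that begins 213 bases before the start, and matches to the NF-kB consensus at 159 and 103 bases.
Cxcl10, chr5:92348890-92349139: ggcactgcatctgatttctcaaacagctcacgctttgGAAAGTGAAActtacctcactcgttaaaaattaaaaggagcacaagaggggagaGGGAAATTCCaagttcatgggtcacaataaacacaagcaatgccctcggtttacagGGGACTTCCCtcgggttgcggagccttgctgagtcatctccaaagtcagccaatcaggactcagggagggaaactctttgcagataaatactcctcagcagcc

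The interferon core matched 3 of the 27 chemokine genes with a window (Cxcl10, Cxcl14 and Ccl19) and 3.46% of all genes with one. The 10 listed interferon-responsive genes added up to 99.5 and 117 CPM in HepLPC, against 334 and 1235 CPM in NPC_LPC replicates 1 and 2. Their median log2 fold change was -4.92 over 10 tested genes, against 0.00 over all tested genes, and it is the same with Ifit1 and Oas2, which had no count in HepLPC, set to 3 counts per library there. The edgeR test called 0 of them, with 9 at an unadjusted p under 0.05 (21.9% of all genes) and 9 called lower in HepLPC by DESeq2 (6.5% of all genes). Isg15, which encodes a ubiquitin-like modifier, was at 0.0555 and 0.282 CPM in HepLPC, against 4.83 and 101 CPM in NPC_LPC. Irf1, a transcription factor of the same response, was at 45.4 and 46.2 CPM in HepLPC, against 53.7 and 88.1 CPM in NPC_LPC. Cxcl10, Cxcl9 and Ccl5 shared with these genes the higher value in NPC_LPC replicate 2 than in replicate 1. This direction was not particular to them, since Cxcl2, Cxcl3, Cxcl12, Cx3cl1 and Ccl9 were also higher in replicate 2. Cxcl1, Cxcl5, Ccl2, Ccl7 and Ccl20 were among the genes that were lower there. Cxcl10 in NPC_LPC replicate 1 was below both HepLPC libraries, which Isg15 was not. The part of the interferon-responsive genes in the values of Cxcl10, Cxcl9 and Ccl5 was not tested.

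**Figure D5:**
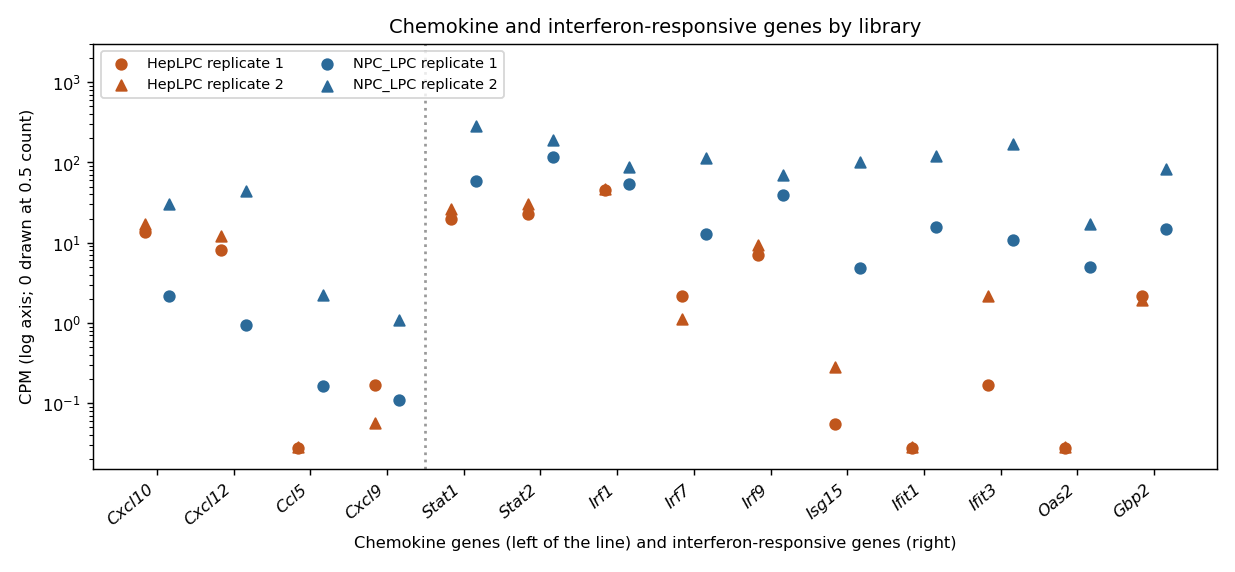
Points give the CPM (log axis) of 4 chemokine genes, left of the dotted line, and of the 10 interferon-responsive genes in each library, with circles for replicate 1 and triangles for replicate 2; genes with no count are drawn at 0.5 count. All 14 genes are higher in NPC_LPC replicate 2 than in replicate 1, while the HepLPC points of Cxcl10 and Cxcl12 lie between those of NPC_LPC.

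Cxcl12, the ligand of CXCR4 and a product of stromal cells, showed the widest spread between replicates among the tested chemokine genes. It was at 8.11 and 12.1 CPM in HepLPC, against 0.933 and 44.0 CPM in NPC_LPC, a 47.2-fold difference between the NPC_LPC libraries. The log2 fold change was -1.15 (SE 1.39, edgeR adjusted p = 0.657) and 3.43 without NPC_LPC replicate 2. The stellate and fibroblast genes summed to 5.76 CPM in NPC_LPC replicate 1 and to 16.7 CPM in replicate 2. Most of the sum in replicate 2 was Col1a1, at 2.74 CPM in replicate 1 and 11.8 CPM in replicate 2. Acta2 (0 and 2.28 CPM), Col3a1 (0 and 1.04 CPM) and Reln (0.494 and 1.14 CPM) were also higher in replicate 2. Dcn (1.43 and 0.297 CPM), Des (0.713 and 0.149 CPM) and Pdgfra (0.384 and 0 CPM) were lower there. Pdgfrb, Lrat and Lum had at most 1 count in any library. The part of these stellate and fibroblast genes in the level of Cxcl12 was not tested. Cxcl14, known from epithelia, was at 5.39 and 0.169 CPM in HepLPC, against 0.658 and 0.0495 CPM in NPC_LPC, so that 1 HepLPC library stood apart. Its log2 fold change was 2.97 (SE 1.72, edgeR adjusted p = 0.366) and -1.02 without HepLPC replicate 1. Cxcl17, a mucosal chemokine, was at 1.499 and 2.48 CPM in HepLPC, against 3.02 and 0.941 CPM in NPC_LPC, and its groups overlapped. Cxcl13, a B cell attractant, had 1 count, in NPC_LPC replicate 2.

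The membrane-anchored ligands Cxcl16 and Cx3cl1 were moderately expressed in every library. Cxcl16, whose receptor CXCR6 is carried by natural killer T cells of the liver, was at 11.8 and 6.47 FPKM in HepLPC, against 11.5 and 12.1 FPKM in NPC_LPC. In CPM the HepLPC libraries were at 39.2 and 20.7 and those of NPC_LPC at 40.8 and 40.9, and the log2 fold change was -0.45 (SE 0.37, edgeR adjusted p = 0.508). Cx3cl1, the ligand of CX3CR1, was at 25.1 and 16.2 CPM in HepLPC, against 15.0 and 38.9 CPM in NPC_LPC. Its groups overlapped, with a log2 fold change of -0.38 (SE 0.52, edgeR adjusted p = 0.696). Both ligands are released from the membrane by the proteases ADAM10 and ADAM17, whose genes are in the processing list below.

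The remaining genes encode CC ligands, apart from Xcl1, which encodes a C ligand. Ccl25, which guides lymphocytes to the gut, was at 5.83 and 5.80 CPM in HepLPC, against 5.05 and 4.06 CPM in NPC_LPC. Its log2 fold change was 0.35 (SE 0.45, edgeR adjusted p = 0.678). It overlaps Elavl1 on the other strand. Ccl27a, a skin chemokine, was at 0.611 and 1.41 CPM in HepLPC, against 2.80 and 2.52 CPM in NPC_LPC. Its log2 fold change was -1.39 (SE 0.71, edgeR adjusted p = 0.31). It overlaps Il11ra1 on the other strand, and 45.0% of its 50-base windows are found in other genes, so its counts are uncertain. Overlaps on the other strand also exist for Ccl2, Cxcl10, Cxcl16 and Cxcl17, and since the strand setting of the counting is unknown, reads of the 2 strands cannot be told apart there. Ccl28 had 8 and 0 counts in HepLPC and 1 and 7 counts in NPC_LPC, and Ccl17 had 2 and 3 counts in HepLPC and 0 and 12 counts in NPC_LPC. Ccl19, Ccl21a, Ccl21b, Ccl22, Ccl24, Ccl26 and Xcl1 had no count in any library, and Ccl27b had 1 count over all libraries.

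The receptors for these ligands were nearly absent from the cultures. None of the 18 genes of signalling chemokine receptors had enough counts for the test, 16 stayed at or under 3 counts in every library, and 12 had no count at all, Cxcr2, Ccr2 and Ccr6 among them. Cx3cr1 was at 1.11 and 0.282 CPM in HepLPC, against 0.219 and 0.099 CPM in NPC_LPC, and Ccr4 was at or below 0.555 CPM in all libraries. Of the 5 atypical receptors, which bind chemokines without classical signalling, 2 could be tested and edgeR and DESeq2 called 0, with 0 at an unadjusted edgeR p under 0.05. Ackr3, a scavenger of Cxcl12, was at 6.28 and 4.62 CPM in HepLPC, against 1.70 and 3.47 CPM in NPC_LPC. Ccrl2, which binds the attractant chemerin, was at 0.50 and 1.13 CPM in HepLPC, against 1.37 and 0.792 CPM in NPC_LPC. Among ligands under other symbols, edgeR and DESeq2 called 0 of 3 tested, with 0 at an unadjusted edgeR p under 0.05. Mif, a cytokine that can act on chemokine receptors, was at 183 and 256 CPM in HepLPC, against 161 and 153 CPM in NPC_LPC. Ppbp, a platelet ligand, stayed at or below 0.889 CPM.

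Genes that process, present or induce chemokines were tested nearly completely. Of 12 genes for proteases and heparan sulphate carriers, which shed, trim or hold chemokines at the cell surface, 10 were tested and edgeR called 0, with 3 at an unadjusted p under 0.05 (21.9% of all genes) and 2 (Sdc3 and Sdc4) called lower in HepLPC by DESeq2 (6.5% of all genes). Sdc1, the most abundant syndecan, was at 554 and 611 CPM in HepLPC, against 601 and 503 CPM in NPC_LPC. Ext1, which builds heparan sulphate chains, was at 147 and 231 CPM in HepLPC, against 330 and 325 CPM in NPC_LPC. Adam10, the protease that releases Cxcl16 and Cx3cl1, was at 226 and 208 CPM in HepLPC, against 291 and 312 CPM in NPC_LPC.

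All 14 receptors of chemokine-inducing signals were tested, and 13 had a fitted value below 0. The edgeR test called 0, with 7 at an unadjusted p under 0.05, against 21.9% of all genes. DESeq2 called 4 lower in HepLPC (Tnfrsf1b, Il1r1, Il1rap and Tlr3), against 6.5% of all genes. Their median log2 fold change was -0.72, against 0.00 over all tested genes. Ifngr1, a chain of the interferon gamma receptor, was at 174 and 283 CPM in HepLPC, against 295 and 242 CPM in NPC_LPC. Ltbr, the lymphotoxin beta receptor, was at 97.4 and 114 CPM in HepLPC, against 109 and 117 CPM in NPC_LPC. Il1r1, the interleukin 1 receptor, was at 6.72 and 2.42 CPM in HepLPC, against 26.1 and 51.8 CPM in NPC_LPC. Its log2 fold change was -3.09 (SE 0.63, edgeR adjusted p = 0.0853).

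Of 12 genes of the NF-kB pathway, edgeR called 0, with 2 at an unadjusted p under 0.05 (21.9% of all genes), and DESeq2 called 2 (12.3% of all genes), Nfkbia higher and Nfkbie lower in HepLPC. Both counts are near the shares over all genes. Nfkbia, an inhibitor of NF-kB and itself one of its target genes, was at 275 and 327 CPM in HepLPC, against 98.1 and 104 CPM in NPC_LPC. Its log2 fold change was 1.57 (SE 0.24, edgeR adjusted p = 0.0626). Nfkbiz, a nuclear cofactor of NF-kB, was at 184 and 152 CPM in HepLPC, against 232 and 183 CPM in NPC_LPC. The subunit gene Rela was at 140 and 187 CPM in HepLPC, against 188 and 142 CPM in NPC_LPC, so its groups overlapped. Of the 12 genes, 9 had a fitted value below 0. Whether these genes have a part in the chemokine values was not tested.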

How the data were processed

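RNA-seq of 4 cultures of mouse liver progenitor-like cells was read from the deposited tables, 1 per library. The submitters' processing notes name Trimmomatic, HISAT2, Cufflinks, HTSeq, DESeq and mm10. Not given in the sources used here are versions, annotation and whether counting used strand. Per the file headers, the authors deposited a read count and an FPKM value (fragments scaled by gene length and library size) per gene symbol. The total count was 18123118 and 17575998 in HepLPC replicates 1 and 2, and 17919947 and 20625957 in those of NPC_LPC. Groups and replicate numbers come from the titles.

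Counts were tested over the whole table with edgeR 4.0.16 (R 4.3.3) and its quasi-likelihood F test (filterByExpr, TMM factors, group as the only term, Benjamini-Hochberg adjustment, threshold 0.05, two-sided). The filter left 12332 of 21878 rows. Standard errors were derived from the F statistic. CPM are counts scaled by library total and TMM factor. FPKM served to compare levels between genes and, with limma 3.58.1 on log2(FPKM + pseudocount), as an alternative. Other alternatives were DESeq2 1.42.0, limma-voom, other scaling factors and filters, the replicate number as a block, and leaving out each library. The edgeR step was tested on simulated data. No permutation test was run on single genes, because 2 libraries per group allow no exact p below 0.333. A count of 3, used as the floor for a gene with no count, equals 0.149 to 0.169 CPM. Floors cover counting error only. Nothing in the labels places replicates in separate mice or cultures, so p-values measure the spread between these libraries, which may be technical.

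The members and lists were chosen with earlier results of these data known. All members are accounted for, and those past the filter are given with each library's value. From each pathway list the members past the threshold, or else the 2 with the highest FPKM, are named. Any other gene named was picked with its values in view. Coordinates and transcripts are GENCODE M21 on GRCm38 (the assembly called mm10). Promoter windows are RefSeq's on GRCm38.p6 and matched 27 of 37 members. Motifs were searched on both strands of the 250 bases before each start.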

Additional observations from a re-analysis of the deposited data

How the results depend on the processing

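Across 14 alternatives, 10 of the 16 tested chemokine genes kept the sign of their log2 fold change in every one (Cxcl1, Cxcl2, Cxcl3, Cxcl5, Cxcl16, Ccl2, Ccl9, Ccl20, Ccl25 and Ccl27a). Of 223 values of single genes, 192 kept direction and side of the threshold, 8 passed it and 23 changed sign. Over all genes edgeR called 53, against 593 without a filter on low counts, 1517 with DESeq2, 5 with limma-voom, 8 with limma on log2(FPKM + 1), 129 on log2(FPKM + 0.1), and 0 on log2(FPKM + 1) over every gene above 0. Without a filter 1 of the 16 genes was called (Cxcl2, edgeR adjusted p = 0.0188), and with DESeq2 5. Leaving out 1 library gave 0 to 377 calls over all genes and 0 to 1 among the 16; the lone library left in a group is then assumed to vary like the other group. Log2 fold changes that changed sign when 1 library was left out ran from -1.07 to 1.87 for Ccl7, -0.97 to 2.84 for Cxcl10, -2.10 to 3.43 for Cxcl12, -1.02 to 5.65 for Cxcl14, -0.60 to 1.09 for Cxcl17 and -0.895 to 0.46 for Cx3cl1. With limma-voom, Ccl7 was at 0.42, Cxcl10 at 0.84 and Cxcl12 at 0.51. On log2(FPKM + 1), with or without a filter, Ccl7 was at 0.32, Cxcl10 at 0.55 and Cxcl17 at -0.014. On log2(FPKM + 0.1), Ccl7 was at 0.37, Cxcl10 at 0.72 and Cxcl12 at 0.29. The cause of these changes was not tested.

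Whether the replicate numbers pair the libraries is not known. Deviations from the group means correlated at -0.02 between same-numbered libraries over 12332 genes. With 2 libraries per group, this single value cannot decide whether same-numbered libraries shared a preparation. With the replicate number as a block, edgeR called 136 genes and 0 of the 16, and Ccl7 was at 0.35, Cxcl10 at 0.86 and Cxcl12 at 0.46. At this depth, a gene with no count in a library could lie at up to 0.149 to 0.169 CPM. The 21 chemokine genes left out of the test had too few counts for it, which does not show that they did not differ.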

Other observations

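Replicates of the same group differed in their chemokine RNAs. The higher replicate over the lower had a median ratio of 1.52 in HepLPC over the 16 tested chemokine genes, against 1.33 over all tested genes. In NPC_LPC it was 2.87 over these 16 genes, against 1.27 over all tested genes. A ratio above 2 was found for 4 of the 16 genes in HepLPC and for 10 in NPC_LPC. The share of all tested genes above this ratio was not computed, so these counts have no background to be read against. Between the NPC_LPC libraries, Cxcl1, Cxcl5, Ccl2, Ccl7 and Ccl20 were higher in replicate 1, while Cxcl2, Cxcl3, Cxcl10, Cxcl12 and Cx3cl1 were higher in replicate 2. Low counts widen such ratios, and no test was made of this difference.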
